A study of Mus musculus with 13 samples.

Results

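Ly6a, Anxa1, Anxa3, Il1rn, Areg, Ereg, Spp1 and Clu are 8 genes known from the fetal intestinal epithelium and from adult epithelium that repairs an injury. They were chosen by name, with earlier results of these data known, and all 8 were found among the 21420 gene identifiers that the 2 deposited tables of read counts have in common. In the adult gut these genes are usually low in the resting crypt, the pocket of epithelium that houses the stem cells. After damage, crypts can shift for a time to a fetal-like state marked by Ly6a (Sca-1), annexins and Clu, a state known to depend on the transcriptional coactivator YAP, and ligands of the EGF receptor such as Areg and Ereg drive regrowth. Polycomb repressive complex 2 (PRC2) represses developmental genes by methylating lysine 27 of histone H3. Eed is a core subunit that the complex needs for its activity, and Ezh2 is its main catalytic subunit, which the related Ezh1 can replace in part.

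The 13 RNA-seq libraries came from mouse small intestine. Eed KO crypts (Eed-/-, n = 3), Ezh2 KO crypts (Ezh2-/-, n = 3) and WT crypts (n = 3) were taken at 12 weeks of age from mice that received beta-naphthoflavone for 6 weeks from an age of 6 weeks, all labelled as of a mixed C57BL/6-FVB background. Eed KO organoids (Eed-/-, labelled C57BL/6-FVB, n = 2) and WT organoids (labelled FVB, n = 2), cultures of epithelium, received the compound for 10 days. Beta-naphthoflavone induces AhCre, a recombinase whose promoter responds to it in the epithelium and in some other cells. The labels name AhCre for the organoids, WT included, and for the crypts of sequencing run 440, together with floxed Eed or Ezh2 in the knockouts, so that WT libraries also carry the recombinase and the treatment there. Libraries are named by group, run (385 or 440) and number. Run 385 held Eed KO crypts 385_1 and 385_2, WT crypts 385_1 and 385_2 and all organoids, and run 440 held Eed KO crypt 440_1, the 3 Ezh2 KO crypts and WT crypt 440_1.

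Depth ran from 11421666 to 18300644 counts per library. Eed mRNA was at 15.9 to 25.04 CPM (read counts scaled to the TMM-adjusted library size) in Eed KO crypts, against 50.1 to 60.3 CPM in WT crypts, and at 19.2 and 30.5 CPM in Eed KO organoids, against 73.5 and 62.4 CPM in WT organoids. Ezh2 was at 17.7 to 21.8 CPM in Ezh2 KO crypts, against 72.2 to 95.3 CPM in WT crypts. The 10 epithelial markers summed to 4938 to 9367 CPM in Eed KO crypts, 8329 to 9444 CPM in Ezh2 KO crypts and 6849 to 8789 CPM in WT crypts, with none at 0. The 21 immune markers summed to 167 to 222 CPM in Eed KO crypts, 59.1 to 75.1 CPM in Ezh2 KO crypts and 108 to 117 CPM in WT crypts. In Eed KO organoids they summed to 6.44 to 9.01 CPM with 11 at 0, among them Tyrobp, Itgax and Cd3e, and in WT organoids to 4.46 to 5.49 CPM with 13 at 0, Ptprc among them. WT crypt 440_1 stood apart from the other WT crypts: its 13 mesenchymal markers summed to 876 CPM, against 67.2 and 209.5 CPM in WT crypts 385_1 and 385_2, and 168 to 356 CPM in Eed KO crypts. The share of mitochondrial transcripts was between 3.71% and 18% in Eed KO crypts and between 8.65% and 14.5% in WT crypts. Xist, an RNA made from the inactive X of female cells, was at 289 to 3471 CPM in Eed KO crypts, against 2.67, 2.75 and 1622 CPM in WT crypts 385_1, 385_2 and 440_1, and at 0.957 and 1.45 CPM in Eed KO organoids, against 1308 and 1367 CPM in WT organoids. The sex pattern therefore differed between the groups in run 385 and not between the Eed KO and WT crypts of run 440. The part of these markers and of sex in the results was not tested.

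The 8 genes lie on 5 chromosomes, with positions given here as deposited for GRCm38. Ly6a (ENSMUSG00000075602) is at chr15:74994878-74997634 in the table of run 385 and at chr15:74994877-74998031 in that of run 440. The annexins Anxa1 (ENSMUSG00000024659) and Anxa3 (ENSMUSG00000029484) are at chr19:20373428-20390944 and chr5:96793385-96845968. Il1rn (ENSMUSG00000026981) is at chr2:24336853-24351494, and Clu (ENSMUSG00000022037) is at chr14:65968483-65981548. Areg (ENSMUSG00000029378), at chr5:91139615-91148432, and Ereg (ENSMUSG00000029377), at chr5:91074617-91093649, are neighbours whose starts are 65.0 kb apart. Spp1 (ENSMUSG00000029304) is at chr5:104435118-104441050. All 8 are protein-coding genes.

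The table of RefSeq promoters used here matched 4 of the 8 genes, Il1rn, Areg, Spp1 and Anxa1, with 7 windows. The 250 bases before the first listed start site of Il1rn, Areg and Spp1 are shown because these 3 genes had the lowest levels in WT crypts of those that rose in Eed KO crypts. Capitals mark the motifs found on either strand: TGANTCA for AP-1, TGACGTCA for the cAMP response element (CRE) and TATAAA for a TATA box.
Il1rn, chr2:24336610-24336859, plus strand: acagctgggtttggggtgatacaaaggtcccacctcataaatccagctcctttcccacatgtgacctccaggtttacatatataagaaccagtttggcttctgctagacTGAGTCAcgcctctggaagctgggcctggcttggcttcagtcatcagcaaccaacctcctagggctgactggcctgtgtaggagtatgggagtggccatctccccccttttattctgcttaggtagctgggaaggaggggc
Areg, chr5:91139349-91139598, plus strand: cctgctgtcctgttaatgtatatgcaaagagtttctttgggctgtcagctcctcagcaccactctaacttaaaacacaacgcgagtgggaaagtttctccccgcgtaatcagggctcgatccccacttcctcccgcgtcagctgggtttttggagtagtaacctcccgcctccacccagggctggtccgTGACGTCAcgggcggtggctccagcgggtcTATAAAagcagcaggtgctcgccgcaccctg
Spp1, chr5:104434861-104435110, plus strand: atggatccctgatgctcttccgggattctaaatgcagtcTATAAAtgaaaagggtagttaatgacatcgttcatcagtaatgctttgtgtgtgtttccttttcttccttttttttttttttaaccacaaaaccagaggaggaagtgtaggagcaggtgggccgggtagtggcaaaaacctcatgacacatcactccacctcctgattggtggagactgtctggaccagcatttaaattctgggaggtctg
The Il1rn window holds 1 AP-1 match, which begins at -141 from the start site, and the Areg window holds a CRE at -61 and a TATA box at -31. In the Spp1 window the TATAAA letters lie at -211, far from where a TATA box usually acts. Of 32851 RefSeq windows of the same length (build GRCm38.p6), 6.75% hold the AP-1 letters, 1.55% the CRE and 12.4% the TATA letters. GGAATG, the core of the TEAD motif through which YAP acts, is in 12.6% of the windows. It is not in the 3 windows shown, but it begins at -24 in a further window of Il1rn and at -236 in the window of Anxa1. The windows also differ in base composition. Areg has 57.2% G and C with 15 CpG, Il1rn has 53.2% with 1 CpG and Spp1 has 43.6% with 3 CpG, where the median window has 52.4% and 6 CpG. CpG-rich promoters are the usual place of PRC2 binding. Of the 3 genes shown Areg alone is above the median in CpG, and its 15 CpG are below the upper quartile of 16. These RNA-seq libraries hold no measure of PRC2 binding. A match in these letters is a description of the sequence, not a site of binding.

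In Eed KO crypts 7 of the 8 genes rose, and Ereg did not pass the test. The median log2 fold change of the 8 was 4.88 in Eed KO against WT crypts, where all 14406 genes tested had a median of -0.04, and 13.4% of all genes tested were called higher and 10.6% lower (edgeR, adjusted p under 0.05). These 7 calls were kept under all 14 alternatives, among them the fit with the replicate number as a block, in which 1046 genes were called higher and 543 lower of 13802 tested. Ezh2 KO crypts gave no call among the 8, with a median log2 fold change of 0.87; of all genes 0% were called higher and 0.0208% lower. DESeq2 called 36 genes higher and 34 lower in that comparison, and 1179 genes had an unadjusted p under 0.05 in edgeR. Eed KO organoids had 5 of the 8 called higher against WT organoids, where 13.5% of all genes were called higher and 4.63% lower. Strain label, sex pattern and genotype differ together between these organoid groups and cannot be told apart for any of the 8 genes. All 8 lay higher in both Eed KO organoids than in both WT organoids, as did 31.3% of the 12902 tested genes found in both tables. In Eed KO crypts 7 of the 8 lay wholly above the WT crypts, as did 17.3% of all genes tested. Every gene of the 8 passed the low-count filter in each comparison, but Areg and Spp1 in crypts, and Ereg and Spp1 in organoids, would not have passed on the WT libraries alone. Fewer cells that make a transcript and less of it per cell cannot be told apart in bulk libraries. The crypt comparisons with WT share the same 3 WT libraries, and since no label states that a library had its own mouse or culture, the p-values rest on a library-to-library spread that may be technical.

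**Figure D1:**
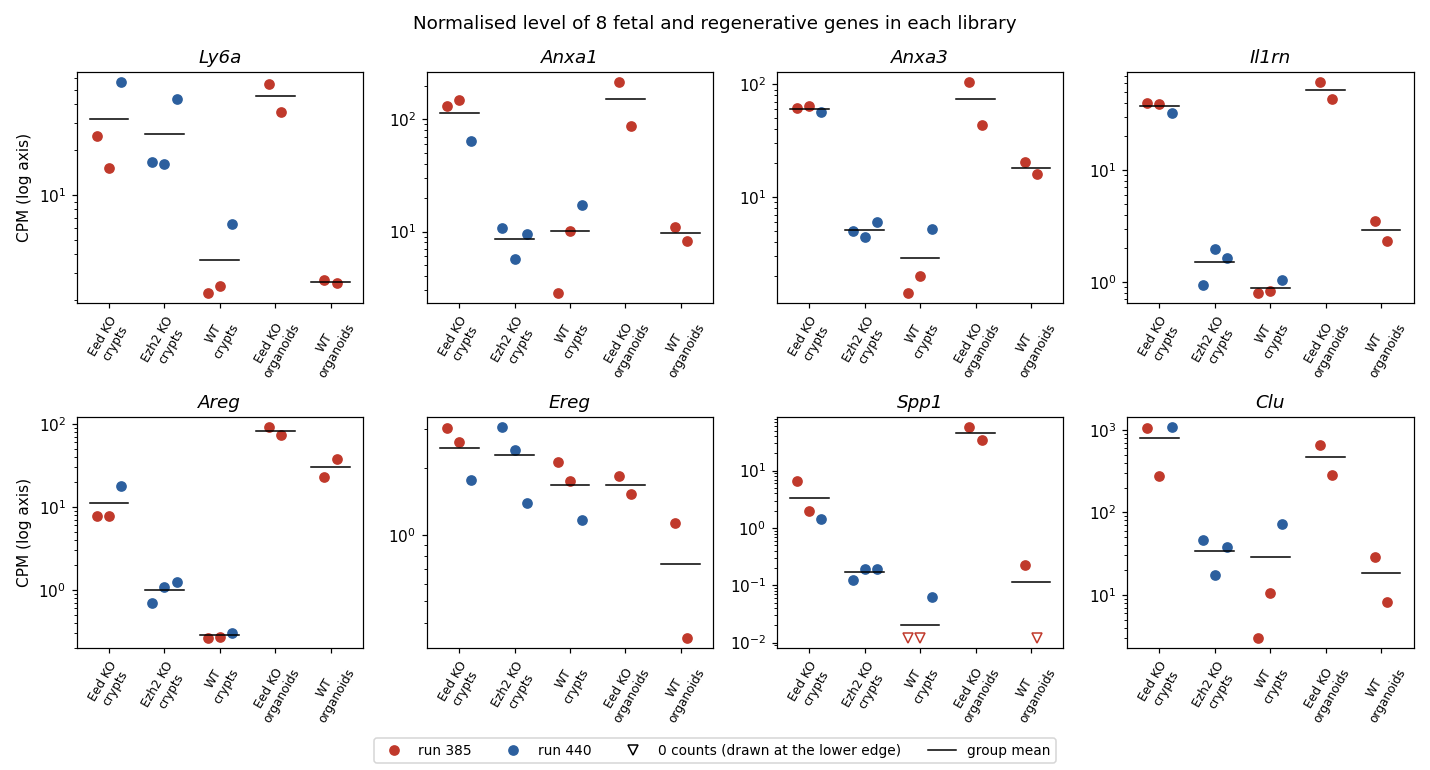
Level of each gene in each of the 13 libraries, in CPM on a log axis, by group, with the group mean as a line, run 385 in red and run 440 in blue; open triangles mark libraries with 0 counts. All Eed KO crypts lie above all WT crypts for 7 of the 8 genes, Ereg overlaps, and WT crypt 440_1 is the highest WT crypt for Ly6a, Anxa1, Anxa3, Il1rn, Areg, Spp1 and Clu.

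The surface protein Ly6a, or Sca-1, marks the fetal-like cells of injured crypts and is also inducible by interferon. It was at 24.5, 14.97 and 56.1 CPM in Eed KO crypts 385_1, 385_2 and 440_1, against 2.23, 2.48 and 6.37 CPM in WT crypts 385_1, 385_2 and 440_1. The groups did not overlap, and in both the library of run 440 was the highest. Its log2 fold change was 3.10 ± 0.44 (SE, adjusted p = 0.00154). Within run 385 the ratio of means was 8.40, and within run 440 it was 8.79. Ezh2 KO crypts had 16.5, 16.1 and 43.4 CPM, all above the 3 WT crypts, with a log2 fold change of 1.97 ± 0.52 (adjusted p = 0.562, unadjusted p = 0.00445). DESeq2 called this difference (adjusted p = 0.0321), and over all alternatives its adjusted p ranged from 0.0321 to 0.989. In Ly6a Eed KO crypts overlapped Ezh2 KO crypts, with a log2 fold change of 1.13 ± 0.46 (adjusted p = 0.121). Without Ezh2 KO crypt 440_3, the highest of its group, that log2 fold change was 1.77 with an adjusted p of 0.00830. In culture, Ly6a was at 55.0 and 35.4 CPM in Eed KO organoids, against 2.71 and 2.57 CPM in WT organoids, a log2 fold change of 4.09 ± 0.27 (adjusted p = 0.000197). Ly6a belongs to a cluster of near-identical paralogs, whose reads the counting could split, so its level is uncertain.

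Annexins bind membrane phospholipids in the presence of calcium, and Anxa1 is known for limiting inflammation and for aiding epithelial repair. Anxa1 was at 132, 148 and 64.0 CPM in Eed KO crypts 385_1, 385_2 and 440_1, against 2.85, 10.2 and 17.3 CPM in WT crypts. Both groups varied, but the lowest Eed KO crypt was above the highest WT crypt. The log2 fold change was 3.58 ± 0.63 (adjusted p = 0.00422), with a ratio of 21.5 in run 385 and 3.71 in run 440. It was 4.43 without WT crypt 440_1, 4.36 without Eed KO crypt 440_1 and 2.92 without WT crypt 385_1. Ezh2 KO crypts, at 10.7, 5.65 and 9.58 CPM, lay among the WT crypts, with a log2 fold change of -0.35 ± 0.64 (adjusted p = 0.900) that became 1.54 (adjusted p = 0.211) without WT crypt 440_1. Run 440, which holds all Ezh2 KO crypts, has no other WT crypt, and within it the ratio of Ezh2 KO to WT crypts was 0.501. Eed KO crypts were above Ezh2 KO crypts by a log2 fold change of 3.93 ± 0.73 (adjusted p = 0.00750), or 5.31 without Eed KO crypt 440_1.

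Anxa3 varied little among the Eed KO crypts. Its levels were 61.4, 64.0 and 56.5 CPM in Eed KO crypts, a mean of 60.6 ± 3.78 CPM (SD, n = 3), against 1.42, 2.02 and 5.21 CPM in WT crypts. The spread of the WT crypts came from 440_1. The log2 fold change was 4.51 ± 0.37 (adjusted p = 0.000183), and it was 5.18 without WT crypt 440_1 and 5.11 without Eed KO crypt 440_1. In Ezh2 KO crypts Anxa3 stood at 4.998, 4.44 and 5.99 CPM, with a log2 fold change of 0.48 ± 0.40 against WT crypts (adjusted p = 0.741). Without WT crypt 440_1, the only WT crypt of run 440, that log2 fold change was 1.72 and passed the threshold (adjusted p = 0.0357). That fit links Ezh2 KO and WT crypts only through the Eed KO crypts and the run term. Within run 440 the ratio of Ezh2 KO to WT crypts was 0.987. Against Ezh2 KO crypts, Eed KO crypts were higher by 4.03 ± 0.41 on the log2 scale (adjusted p = 0.000566), or 5.09 without Eed KO crypt 440_1.

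Both annexins were high in cultured Eed KO epithelium too. Eed KO organoids had 213.5 and 87.2 CPM of Anxa1, against 10.98 and 8.31 CPM in WT organoids (log2 fold change 3.95 ± 0.54, adjusted p = 0.0140), or 3.18 without Eed KO organoid 385_1. This call was lost when WT organoid 385_1 or 385_2 was left out, with adjusted p of 0.299 and 0.323, and without the low-count filter (0.117). Anxa3 was at 104 and 43.7 CPM in Eed KO organoids, against 20.5 and 15.9 CPM in WT organoids. These groups did not overlap, but the log2 fold change of 2.01 ± 0.46 missed the threshold (adjusted p = 0.0506). It passed in DESeq2 (adjusted p = 1.6e-07), in the fit of all 13 libraries (0.0116) and with the replicate number as a block (0.00275). The block rests on numbers that are only shared labels in organoids, and it leaves fewer degrees of freedom than the main organoid fit. The log2 fold change was 1.27 without Eed KO organoid 385_1 and 2.51 without 385_2, and each of these fits leaves a single Eed KO organoid.

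Il1rn encodes the interleukin-1 receptor antagonist, a decoy ligand that blocks IL-1 signalling. It was at 39.8, 39.0 and 32.4 CPM in Eed KO crypts, against 0.801, 0.825 and 1.04 CPM in WT crypts. Both groups were tight, and Il1rn had the smallest adjusted p of the 8 genes in crypts (4.98e-05, log2 fold change 5.35 ± 0.31). The ratio of means was 48.5 in run 385 and 31.1 in run 440. Ezh2 KO crypts, with 0.937, 1.97 and 1.64 CPM, overlapped the WT crypts (log2 fold change 0.78 ± 0.37, adjusted p = 0.614), and Eed KO crypts were above them by 4.57 ± 0.32 on the log2 scale (adjusted p = 0.000124). In Eed KO organoids it was at 60.8 and 43.5 CPM, against 3.53 and 2.31 CPM in WT organoids (log2 fold change 4.14 ± 0.26, adjusted p = 0.000195). Il1rn is also made by myeloid cells. The immune marker sums above were 167 to 222 CPM in Eed KO crypts against 108 to 117 CPM in WT crypts, and 4 of the 17 immune markers tested rose there, among them Itgax (log2 fold change 1.92), Tyrobp (1.76) and Ncf1 (1.40), while Itgam fell by 0.98. In Eed KO organoids 11 of the 21 immune markers, among them Tyrobp and Itgax, had 0 counts, and both of these libraries were above every Eed KO crypt in Il1rn. The part of immune cells in the crypt difference was not tested.

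Areg and Ereg encode amphiregulin and epiregulin, ligands of the EGF receptor that lie side by side on chromosome 5. The 2 neighbours did not move alike. Areg was at 7.81, 7.87 and 17.9 CPM in Eed KO crypts, against 0.267, 0.275 and 0.306 CPM in WT crypts, where it had 11 counts in all. No value of one group came near the other, and the log2 fold change was 5.24 ± 0.40 (adjusted p = 0.000134). Ereg was at 3.05, 2.62 and 1.76 CPM in Eed KO crypts, against 2.14, 1.74 and 1.16 CPM in WT crypts. These ranges overlapped, and the log2 fold change of 0.57 ± 0.37 did not pass (adjusted p = 0.307). Within each run Ereg was nonetheless about as far apart, with ratios of 1.46 in run 385 and 1.51 in run 440. Per kilobase of exon, the level of Areg was 8.71, 10.2 and 34.5 times that of Ereg in Eed KO crypts, against 0.425, 0.537 and 0.894 times in WT crypts, so Areg was the scarcer of the pair in every WT crypt and the more abundant in every Eed KO crypt.

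In Ezh2 KO crypts Areg was low, and in organoids it was high in both genotypes. Ezh2 KO crypts had 0.687, 1.08 and 1.26 CPM, all above the WT crypts, with a log2 fold change of 1.26 ± 0.47 (adjusted p = 0.594). Eed KO crypts were higher than Ezh2 KO crypts by 3.98 ± 0.37 on the log2 scale (adjusted p = 0.000432), or 3.01 without Eed KO crypt 440_1 (adjusted p = 0.0496). For Ereg the Ezh2 KO crypts stood at 3.06, 2.41 and 1.39 CPM, overlapping both other crypt groups (log2 fold change against WT 0.95 ± 0.46, adjusted p = 0.618). Eed KO organoids had 91.2 and 73.2 CPM of Areg, against 22.9 and 37.7 CPM in WT organoids, a log2 fold change of 1.44 ± 0.25 (adjusted p = 0.0107). The call was lost without Eed KO organoid 385_1 (log2 fold change 1.28, adjusted p = 0.0607) and with the replicate number as a block (adjusted p = 0.0624). Ereg was at 1.83 and 1.53 CPM in Eed KO organoids, against 1.13 and 0.343 CPM in WT organoids (log2 fold change 1.15 ± 0.56, adjusted p = 0.221).

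Spp1 encodes osteopontin, a secreted glycoprotein that binds integrins and CD44. It was nearly silent in WT tissue: the WT crypts had 0, 0 and 0.0613 CPM, or 1 count in all, where a count of 0 allows up to 0.267 and 0.275 CPM in the 2 libraries without one. Eed KO crypts had 6.72, 1.95 and 1.41 CPM, or 133 counts, with the first library well above the others. The ratio of the summed counts, scaled by library size, was 123 (exact 95% counting interval 21.7 to 4888), and edgeR's adjusted p was 0.00172. The interval covers counting error only. Of the 133 counts 86 came from Eed KO crypt 385_1; without it the ratio was 62.7 (10.7 to 2528), and within run 440 it was 23.0 (3.75 to 946), on 24 counts against 1. Ezh2 KO crypts had 8 counts in all, at 0.125, 0.190 and 0.189 CPM, a ratio of 6.46 to WT crypts whose counting interval of 0.866 to 287 included 1 (adjusted p = 0.602). Eed KO crypts were above Ezh2 KO crypts by 3.25 ± 0.88 on the log2 scale (adjusted p = 0.0322). That call was lost without Eed KO crypt 440_1 (log2 fold change 7.54, adjusted p = 0.165) or without Ezh2 KO crypt 440_1 (3.15, 0.0759), 440_2 (3.41, 0.0684) or 440_3 (3.36, 0.0709). Eed KO organoids had 57.2 and 34.6 CPM, against 0.226 and 0 CPM in WT organoids, a ratio of 382 (counting interval 131 to 1857, adjusted p = 0.000429). Pkd2, whose start lies 24.3 kb from that of Spp1, was at 14.8 CPM in both Eed KO organoids, against 0.0752 and 0.0857 CPM in the WT organoids of the FVB label. Strain and genotype cannot be told apart in organoids, at this place of chromosome 5 or at the other genes.

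Clu, clusterin, is a secreted chaperone that marks revival stem cells, rare cells that rebuild the crypt after damage. It was the most abundant of the 8 genes, with 1046, 280.2 and 1080.2 CPM in Eed KO crypts, against 3.03, 10.6 and 72.6 CPM in WT crypts. The groups did not overlap, but each spread widely, with 385_2 low among the Eed KO crypts and 440_1 again the highest of the WT crypts. The log2 fold change was 5.69 ± 0.89 (adjusted p = 0.00241) and was 6.60 without WT crypt 440_1, 6.53 without Eed KO crypt 440_1, 4.74 without Eed KO crypt 385_1 and 5.01 without WT crypt 385_1. The ratio was 97.1 in run 385 and 14.9 in run 440. Ezh2 KO crypts, at 46.9, 17.2 and 38.4 CPM, lay within the range of the WT crypts, with a log2 fold change of -0.45 ± 0.80 (adjusted p = 0.896). This value has no firm sign: it was 1.62 (adjusted p = 0.451) without WT crypt 440_1 and 0.24 without the run as a term. Run 440, which holds all Ezh2 KO crypts, has no other WT crypt, and within it the ratio of Ezh2 KO to WT crypts was 0.471. Eed KO crypts were above Ezh2 KO crypts by 6.13 ± 0.98 on the log2 scale (adjusted p = 0.00396), or 7.58 without Eed KO crypt 440_1 and 5.47 without 385_1. In Eed KO organoids Clu was at 659 and 283 CPM, against 28.6 and 8.14 CPM in WT organoids. These ranges were separate, but with such spread the log2 fold change of 4.67 ± 0.90 missed the threshold (adjusted p = 0.0591). DESeq2 (3.61e-05), the fit of all 13 libraries (0.0119) and the replicate block (8.69e-09) called it. The replicate numbers are only shared labels in organoids, and the block leaves fewer degrees of freedom than the main organoid fit.

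**Figure D2:**
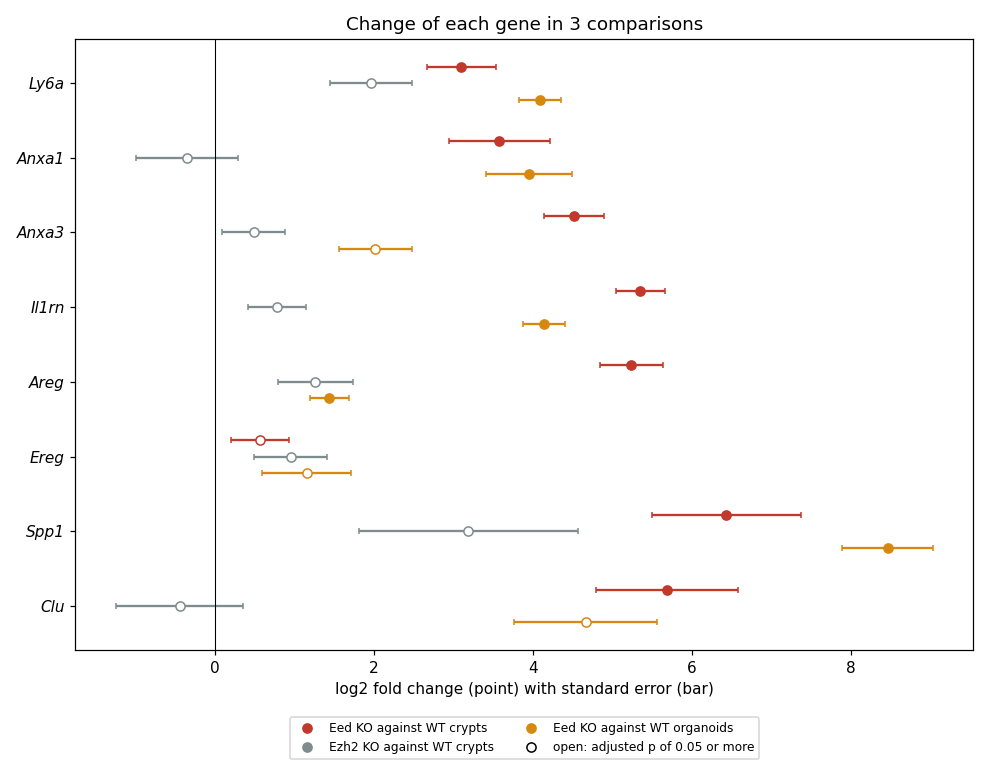
Log2 fold change with its standard error of each gene in Eed KO against WT crypts (red), Ezh2 KO against WT crypts (grey) and Eed KO against WT organoids (orange); open points have an adjusted p of 0.05 or more. All grey points are open, 7 of 8 red points and 5 of 8 orange points are filled, and the fitted values of Spp1 rest on 1 and 3 WT counts and depend on the prior count of the fit.

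The 2 knockouts were also set against each other. Of the 8 genes, 6 were higher in Eed KO than in Ezh2 KO crypts, and none was lower; of all genes tested 12.0% were higher and 8.05% lower. In the same comparison 7 of 17 immune markers were higher, with Itgax at 2.59 and Tyrobp at 2.16 on the log2 scale, as were the mesenchymal Pdgfra (2.95, adjusted p = 0.0263) and the endothelial Pecam1 (1.75, adjusted p = 0.0410), and their part in the result was not tested. The exceptions were Ly6a and Ereg (log2 fold change -0.38 ± 0.44, adjusted p = 0.578). Ly6a, Areg and Spp1 were the 3 genes for which every Ezh2 KO crypt was above every WT crypt, as in 10.6% of all genes tested, at levels that were 25.3, 1.01 and 0.168 CPM on average, against 3.69, 0.283 and 0.0204 CPM in WT crypts. All Ezh2 KO crypts come from run 440, which holds 1 WT crypt, so these differences rest on that library and on the run term.

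Levels in culture and in tissue were then compared, and the base level of 3 genes differed. WT organoids had more Areg than WT crypts by a log2 fold change of 7.17 ± 0.37 (adjusted p = 2.86e-06), the largest of the 8, more Anxa3 by 2.91 ± 0.47 (adjusted p = 0.00113) and more Il1rn by 1.66 ± 0.36 (adjusted p = 0.00626). The Il1rn call was lost without WT organoid 385_1 (1.32, adjusted p = 0.0767). Ereg went the other way in level, with all WT organoids below all WT crypts, at a log2 fold change of -1.36 ± 0.53 (adjusted p = 0.0792), which passed without WT organoid 385_1 (-2.46, adjusted p = 0.0382). Of all genes 9.17% were called higher and 18.9% lower in WT organoids than in WT crypts, and the median of all genes was -0.13. Eed KO organoids had more Areg (log2 fold change 3.33 ± 0.29, adjusted p = 7.74e-05) and more Spp1 (3.45 ± 0.58, adjusted p = 0.00177, or 4.70 without Eed KO crypt 385_1) than Eed KO crypts, where 12.3% of all genes were called higher and 15.6% lower. Ly6a was next, at 1.18 ± 0.42 (adjusted p = 0.0577), and passed in DESeq2 (0.0371) and within run 385 (0.00654). For Anxa1, Anxa3, Il1rn and Clu the 2 Eed KO settings were closer, with log2 differences between -0.15 and 0.47 and adjusted p of 0.230 or more. Strain label, culture and length of induction differ together between these groups and cannot be told apart.

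Whether the effect of Eed loss differed between organoids and crypts was tested as an interaction. For Areg the effect was smaller in organoids, with a log2 difference of -3.84 ± 0.46 (adjusted p = 0.00176), and it remained past the threshold under all 14 alternatives. The difference came with a high level in WT organoids: their mean was 30.3 CPM, above the 11.2 CPM of Eed KO crypts. For Anxa3 it was also smaller, with a log2 difference of -2.46 ± 0.59 (adjusted p = 0.0430), with 18.2 CPM on average in WT organoids, against 2.88 CPM in WT crypts. This call was lost under 8 of 14 alternatives, 7 of which leave out 1 library (adjusted p from 0.0728 to 0.165): Eed KO crypt 385_1 or 385_2, WT crypt 385_1 or 385_2, Eed KO organoid 385_2, or WT organoid 385_1 or 385_2. It was -3.16 without Eed KO crypt 440_1, -3.18 without WT crypt 440_1 and -3.23 without Eed KO organoid 385_1. The other 6 genes did not pass, with log2 differences from -1.19 for Il1rn (adjusted p = 0.166) to 2.05 ± 2.93 for Spp1 (adjusted p = 0.822). Over all genes 2.99% were called with a difference above 0 and 1.13% with one below 0, and the median difference was 0.14.

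Other genes of the fetal and regenerative programme moved in the same direction. Of 19 tested that are not among the 8, 12 rose in Eed KO crypts and none fell, with a median log2 fold change of 1.44. Il33, an alarmin of the IL-1 family, rose by 4.23 ± 0.54 (adjusted p = 0.000951), and Gja1, the gap junction protein connexin 43, by 3.96 ± 0.74 (adjusted p = 0.00533). In organoids 15 of 21 rose and none fell, with a median of 1.57, and Gja1 was at least 226-fold higher, with 679 counts in Eed KO organoids and 0 in WT organoids (floor of 3 counts over the group). None of the 19 was called in Ezh2 KO crypts, where their median was -0.18. The list was chosen with earlier results of these data known, so its direction is no independent evidence.

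Targets of YAP, the coactivator that the regenerative state is known to need, moved less evenly. Of 22 tested in crypts, 11 rose and 2 fell, with a median log2 fold change of 1.25. The secreted matrix protein Ccn2 (CTGF) rose most, by 5.42 ± 0.72 (adjusted p = 0.00112), at 2.12 to 7.40 CPM in Eed KO crypts and 5 counts in all in WT crypts. Fjx1 rose by 4.46 ± 0.51 (adjusted p = 0.000561) and Foxf2, a forkhead factor of the gut mesenchyme, by 4.25 ± 0.61 (adjusted p = 0.00161). Crim1 fell by 0.71 and Dock5 by 0.66 on the log2 scale (adjusted p of 0.0257 and 0.0470). In organoids 12 of 20 rose and none fell, Ccn2 by 2.54 ± 0.22 (adjusted p = 0.000591). Over the 13 libraries Ccn2 was the gene whose profile was closest to that of Areg.

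Around the EGF receptor, ligands and receptors did not move together. Of 10 genes tested besides Areg and Ereg, 3 rose and 1 fell in Eed KO crypts, with a median log2 fold change of 0.115. Among all genes tested there, 13.4% were called higher and 10.6% lower. The ligand Hbegf was at 30.6, 21.7 and 21.1 CPM in Eed KO crypts, against 5.70, 4.13 and 5.15 CPM in WT crypts (log2 fold change 2.29 ± 0.24, adjusted p = 0.000444). Egf rose by 1.46 ± 0.26 (adjusted p = 0.00397) and Errfi1, a feedback inhibitor of the receptor, by 1.01 ± 0.17 (adjusted p = 0.00293). The receptor Egfr itself fell by 0.72 on the log2 scale (adjusted p = 0.0171). The ligands Tgfa (0.36 ± 0.24, adjusted p = 0.313) and Btc (0.63 ± 0.28, adjusted p = 0.138) did not pass, and Epgn, the third ligand of the Areg and Ereg locus, was too low to test. In organoids 3 of 10 were called, all higher: Hbegf by 1.41, Egf by 2.07 and Btc by 0.96, while Egfr was at 0.40 ± 0.14 (adjusted p = 0.100).

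Among relatives of Il1rn, 4 of 8 tested rose and none fell. Il1f6, an IL-36 cytokine whose gene starts at -121.4 kb from that of Il1rn, had 46 counts in Eed KO crypts and 0 in WT crypts, and was at least 14.2-fold higher. Il1r1, the receptor that the antagonist blocks, rose by 3.996 ± 0.53 (adjusted p = 0.00112), Il33 rose as given above, and Il18 rose by 1.38 ± 0.29 (adjusted p = 0.00850). The IL-1 ligands themselves were too low to test, with Il1b at 0.981 CPM in Eed KO crypts and 0.223 CPM in WT crypts, and Il1a at 0.213 and 0.0306 CPM. In organoids 3 of 7 relatives tested rose and none fell, but Il1f6 had only 2 counts in Eed KO and 0 in WT organoids.

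In the Ly6 family, 6 of 9 tested besides Ly6a rose and none fell. Ly6g6e rose by 4.73 ± 0.55 (adjusted p = 0.000604), Ly6d by 3.76 ± 0.30 (adjusted p = 0.000171) and Ly6k by 3.43 ± 0.75 (adjusted p = 0.0113). In organoids 5 of 7 tested rose, Ly6d among them, and none fell. Ly6g6e had only 6 counts in Eed KO and 6 in WT organoids, and Ly6k had 2 and 0. In Eed KO crypts, of 11 other annexins and their S100 partners, 3 rose and 1 fell. Among all genes tested there, 13.4% were called higher and 10.6% lower. Anxa6 rose by 2.35 ± 0.34, S100a11 by 1.44 ± 0.18 and Anxa2 by 0.77 ± 0.17, while Anxa13, an annexin of mature gut epithelium, fell by 1.38 (adjusted p = 0.00107). Of the 9 osteopontin receptors tested, 3 rose and none fell, Itga5 by 1.36, Itgb5 by 1.18 and Cd44 by 1.16. Of 20 interferon-stimulated genes, a list described because interferon induces Ly6a, 10 rose and 2 fell, with Ifit1 higher by 2.87 ± 0.42, Rsad2 by 2.49 and Ifi44 by 2.08 on the log2 scale. Of that list Irf1 fell by 1.28 and Ifit2 fell by 1.08. No gene of that list was higher in Eed KO than in Ezh2 KO crypts, and 1 was lower. In organoids 6 of 20 interferon-stimulated genes rose and none fell. The list's median there was 4.84 on the log2 scale, or 4.10 with the genes at 0 in WT organoids set to their lower bounds, and their summed level was 340.5 and 1115 CPM in Eed KO organoids, against 150 to 152 CPM in WT organoids.

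**Figure D3:**
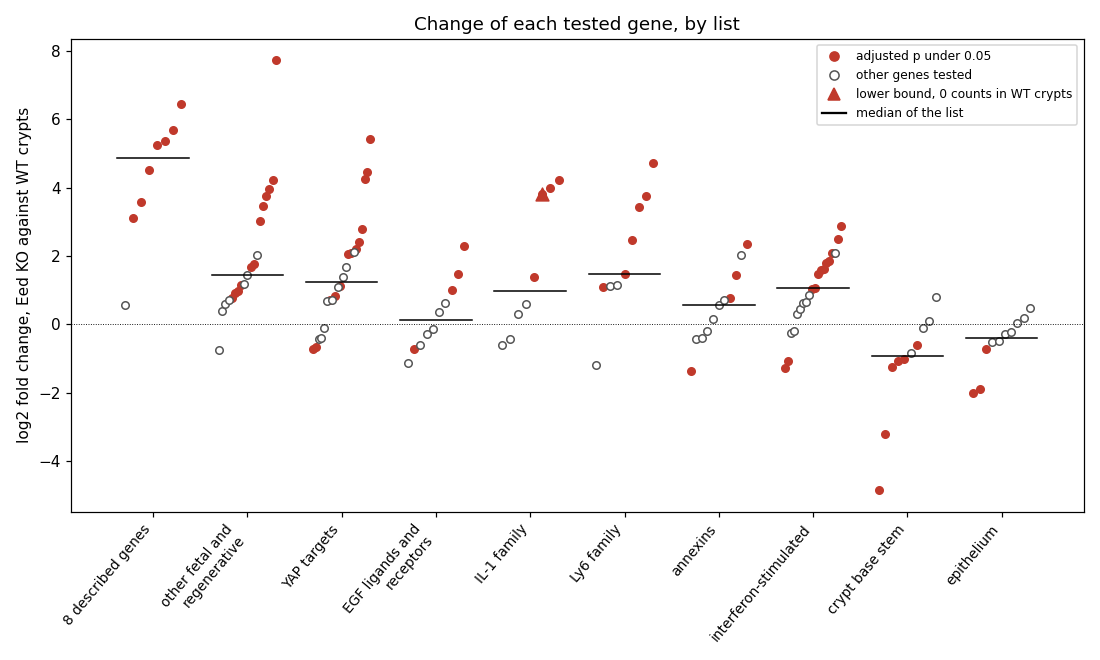
Log2 fold change in Eed KO against WT crypts of each tested gene, by list, with the list's median as a line; filled points have an adjusted p under 0.05, and the triangle is the lower bound of Il1f6. The 8 described genes have a median of 4.88, the other fetal and regenerative genes 1.44, the YAP targets 1.25 and the crypt base stem genes -0.92.

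In Eed KO crypts, genes of other states and cell types moved differently from the 8. Of 10 crypt base stem genes, 6 fell and none rose in Eed KO crypts, Slc14a1, a urea transporter gene, by 4.85, Olfm4 by 3.22 and Lgr5 by 1.24 on the log2 scale, and their summed level was 980 to 1565 CPM, against 4762 to 4860 CPM in WT crypts. Of 12 enterocyte genes 2 fell, among them Krt20 by 1.73, and none rose. Among all genes tested 13.4% were called higher and 10.6% lower, so the enterocyte count lower is near that share. The summed level of the enterocyte genes was 620 and 628 CPM in Eed KO crypts 385_1 and 385_2, against 2129 and 1128 CPM in WT crypts 385_1 and 385_2. In run 440 it went the other way, with 4257 CPM in Eed KO crypt 440_1, against 2906 CPM in WT crypt 440_1. The epithelial markers Cdx2, Cdx1 and Epcam fell by 2.00, 1.89 and 0.71, with none of 10 higher. None of 13 mesenchymal, 6 endothelial or 3 neural markers tested was called in Eed KO against WT crypts in either direction. Of 3 squamous markers tested 1 rose, Krt15, by 1.60. The fall of the stem list was less clear in Eed KO against WT organoids. There 1 of the 10 stem genes rose and 1 fell (median 0.12), and 2 of the 12 enterocyte genes rose and 2 fell (median -0.30). Of the 10 epithelial markers 1 rose and 1 fell there. The mesenchymal sum was 10.8 to 14.4 CPM in Eed KO organoids and 5.56 to 11.1 CPM in WT organoids. Of these 13 markers 2 were at 0 in Eed KO organoids and 6 in WT organoids. In Eed KO against WT organoids 1 of 3 mesenchymal markers tested rose, Pdgfra (2.875, adjusted p = 0.0250). So did 1 of 4 endothelial markers, Tek (2.14, adjusted p = 0.0489), and 1 of 3 neural markers, Ret (1.38, adjusted p = 0.00719). No gene of these lists fell. The part of such cells in the 5 calls among the 8 genes in organoids was not tested.

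Neighbouring genes within 200 kb were examined for each locus. Of 29 other protein-coding genes in these windows 18 were tested in crypts, and 5 rose (27.8%) and 3 fell. Of all genes tested in Eed KO against WT crypts 13.4% were called higher and 10.6% lower. Scara3, a scavenger receptor gene that starts at -49.1 kb from Clu, was at 8.28, 2.28 and 7.87 CPM in Eed KO crypts, against 0, 0 and 1.47 CPM in WT crypts. It followed Clu in that its 385_2 library was the lowest of the Eed KO crypts and WT crypt 440_1 the highest of its group. Its log2 fold change was 4.25 ± 0.98 (adjusted p = 0.0139), and in organoids it had 122 counts, against 2 counts in WT organoids, a ratio of 61.0 (counting interval 16.5 to 510, adjusted p = 0.00287). Other genes around Clu did not follow: Pbk fell by 1.03 and Esco2 by 1.29, and Ccdc25, Gulo, Ephx2 and Ptk2b were not called. Near Ly6a, Ly6k and Ly6e (1.08) rose and 2010109I03Rik fell by 2.21. Beside Il1rn, Il1f6 rose, while Psd4 (0.09) and Pax8 (-0.77) did not pass.

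**Figure D4:**
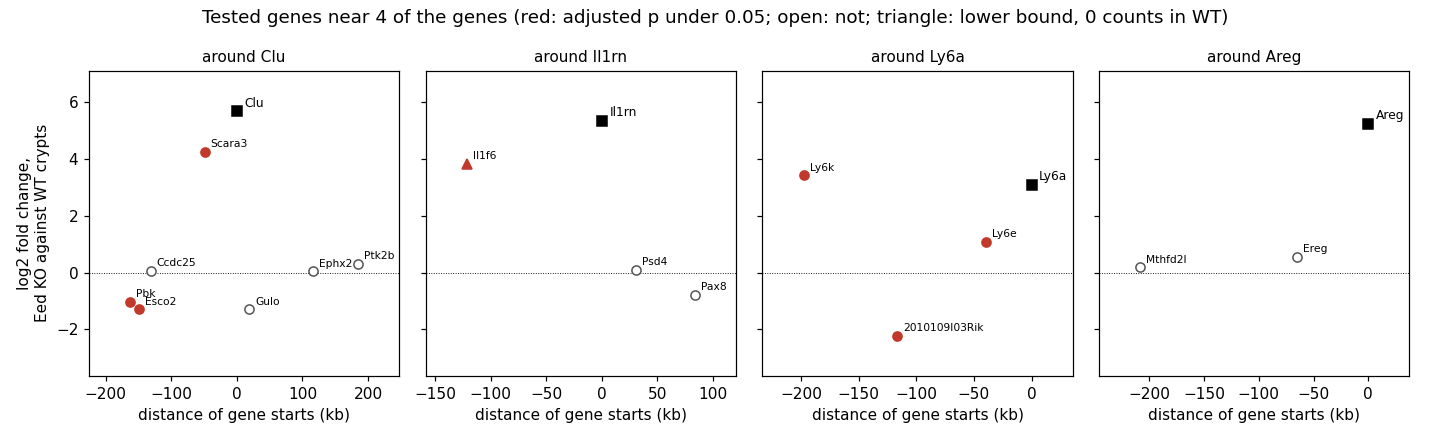
Log2 fold change in Eed KO against WT crypts of tested genes near Clu, Il1rn, Ly6a and Areg, by the distance of their starts from that of the gene named (black square); red points have an adjusted p under 0.05, open points do not, and the triangle is a lower bound. Scara3 at -49.1 kb is high beside Clu, and Ereg at -65.0 kb is near 0 beside Areg.

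Profiles over the 13 libraries were compared as the root mean square difference of log2 CPM centred on each gene's mean, over 13855 genes. The closest pairs among the 8 were Anxa3 and Il1rn (0.82), Anxa1 and Anxa3 (0.87) and Anxa1 and Il1rn (0.89). Ly6a was no closer than 1.53 to any of the 7 others, and its nearest genes were Sdc3 (0.72) and the interferon-stimulated Ifit1 (0.82). Nearest to Anxa1 were Meis2 (0.44) and Abcb1b (0.51), to Anxa3 Pcsk6 (0.43) and Gdf15 (0.46), and to Il1rn Inka2 (0.48) and Plagl1 (0.54). For Areg the nearest were Ccn2 (0.76) and Sprr1a (0.91), for Ereg Cadps2 (0.38), and for Spp1 Zfp365 (1.16) and Ndnf (1.18). The gene closest to Clu was its neighbour Scara3 (0.78), followed by Wnt7b (0.80). A gene's own root mean square deviation from its mean was 0.69 for Ereg, against 2.88 for Spp1 and 2.67 for Clu. The nearest-gene distances of these genes therefore cannot be ranked against each other. These measures share libraries and depth and carry no test.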

How the data were processed

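The deposited tables, 1 for each sequencing run, hold raw counts of reads per gene that the authors made, with Ensembl identifiers per the file headers. RNA had been isolated with TRIzol and turned into stranded mRNA libraries, per the labels' protocols. The submitters' processing notes name GRCm38, TopHat2 2.0.12, Bowtie 0.12.9, HTSeq and DESeq2 without their roles. Use of the strand in counting is not stated there, so reads of overlapping genes on opposite strands cannot be told apart.

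The 8 genes were matched by symbol, and the tables were joined by identifier. The members, the lists and the tests were chosen with earlier results of these data known. Counts were scaled to CPM on TMM-adjusted library sizes, and levels across runs were not corrected. Levels between genes were compared per kilobase of exon in GENCODE M21, which named 24702 of 25183 identifiers. Tests used edgeR 4.0.16 in R 4.3.3 (robust quasi-likelihood F test, TMM, filter with a minimum count of 10 and a minimum total of 15, Benjamini-Hochberg adjustment over all genes tested, threshold 0.05). The 9 crypt libraries were fitted with group and run (14406 genes, leaving 5 degrees of freedom), the 4 organoid libraries with group (12958 genes, leaving 2), and all 13 with group and run for the interaction and for organoids against crypts (14761 genes, leaving 7). SE values were derived from the F statistic. The fits were tested on simulated counts. A group with 0 counts was given a floor of 3 counts over the group. Named genes were the 8, up to 3 per direction of each list by log2 fold change among those called in Eed KO against WT crypts, and the 2 nearest profiles; other genes, among them the neighbours within 200 kb, Tgfa, Btc, Epgn, Il18, Il1a and Il1b, were named after their values were seen. Some genes that the rule names are not reported here.

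Alternatives were RLE factors, DESeq2 1.42.0, no filter, each library left out, single runs, no run term, other sets of libraries and a replicate block. In crypts the block takes same-numbered libraries as pairs, though no label states that they belong together. Deviations from the group means of same-numbered Eed KO and WT crypts correlated with r of 0.166, 0.360 and 0.329 across genes, which includes the run difference. Within run 385 the r was 0.145.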

Additional observations from a re-analysis of the deposited data

Results flagged for a closer look

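In 2 of the 8 genes the effect of Eed loss differed between organoids and crypts by the interaction test. For Areg the difference of the log2 fold changes was -3.84 ± 0.46 (SE, adjusted p = 0.00176): 1.44 in organoids, against 5.24 in crypts. All 4 organoid libraries held more Areg than any crypt library. For Anxa3 the difference was -2.46 ± 0.59 (adjusted p = 0.0430), with 2.01 in organoids, against 4.51 in crypts, and it missed the threshold under 8 of 14 alternatives. Strain label, culture, length of induction and sex pattern differ along with the setting and cannot be told apart from it. No group holds the 4 libraries that a check for a single distant library needs.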

How the results depend on the processing

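All 7 calls in Eed KO against WT crypts were kept under the 14 alternatives, though in at least 1 of them Ly6a and Spp1 were only just under the threshold. In Ezh2 KO against WT crypts DESeq2 called 1 of the 8 genes (Ly6a), and leaving out 1 library gave 0 to 1, with Anxa3 called without WT crypt 440_1, the only WT crypt of the run that holds the Ezh2 KO crypts. The interaction gave 1 of the 8 without the low-count filter and 1 to 2 when 1 library was left out, and WT organoids against WT crypts gave 0 to 1 lower, Ereg without WT organoid 385_1.

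Counts over all genes moved more, and the cause was not tested. In Eed KO against WT crypts 3463 genes were called, 1589 with the replicate block, 2268 with no run term, 1274 in run 440 only and 2140 to 4145 without 1 library (2224 without Eed KO crypt 385_1, 2140 without WT crypt 385_2). In Ezh2 KO against WT crypts 3 were called, 70 by DESeq2, 8 without the filter, 6 with no run term and 1 to 513 without 1 library (513 without WT crypt 440_1, 1 without Ezh2 KO crypt 440_3 or WT crypt 385_2). In Eed KO against Ezh2 KO crypts 2886 were called, and 1816 to 3019 without 1 library (1816 without Ezh2 KO crypt 440_2). In organoids 2352 were called, 3902 with the replicate block and 1339 to 2268 without 1 library (1339 without WT organoid 385_1). The interaction gave 608, 1197 by DESeq2, 1354 in run 385 only and 152 to 1284 without 1 library (152 and 180 without WT organoid 385_1 or 385_2, 286 and 342 without Eed KO organoid 385_1 or 385_2, 258 without WT crypt 385_2, 350 without Eed KO crypt 385_1, 1243 without WT crypt 440_1, 1284 without Eed KO crypt 440_1). WT organoids against WT crypts gave 4142, and 2084 to 4369 without 1 library (2084 and 2555 without WT organoid 385_1 or 385_2, 2635 without WT crypt 385_2). Eed KO organoids against Eed KO crypts gave 4121, and 1934 to 5090 without 1 library (1934 and 2388 without Eed KO organoid 385_1 or 385_2, 2679 without Eed KO crypt 385_1).

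Signs turned only for values that were not called. With no run term, Clu in Ezh2 KO against WT crypts became 0.24 and Ereg in Eed KO against Ezh2 KO crypts 0.12. In run 385 only, the interaction became -0.48 for Anxa1 and -0.27 for Spp1. Without 1 library, log2 values ran in Ezh2 KO against WT crypts from -0.55 to 1.54 for Anxa1 and from -0.73 to 1.62 for Clu. In the interaction they ran from -0.49 to 1.01 for Anxa1, from -0.43 to 5.86 for Spp1 and from -1.95 to 0.18 for Clu. In WT organoids against WT crypts they ran from -0.64 to 0.64 for Anxa1, from -2.40 to 3.87 for Spp1 and from -0.32 to 1.505 for Clu. In Eed KO organoids against Eed KO crypts they ran from -0.35 to 0.94 for Anxa1, from -0.30 to 0.96 for Anxa3 and from -0.88 to 1.13 for Clu.

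In Eed KO against WT crypts, the crypt comparison that was fitted with it, the replicate block changed no call of the 8 genes. In organoids, where there are 2 pairs whose deviations correlated with r of 0.259, the numbers are likewise only shared labels. There the block moved Areg out of the calls (adjusted p = 0.0624) and Anxa3 (0.00275) and Clu (8.69e-09) in. The organoid fit on shared identifiers only, added after the data were seen, gave the same calls for the 8 genes, and the Spp1 ratios over fewer libraries were also added then. With 1 count of Spp1 in WT crypts and 19 of Ereg in WT organoids, depth limits how finely those levels are known.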

Other observations

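Pkd2, the gene of polycystin 2, was chosen after its values were seen. It starts 24.3 kb from Spp1 and was at 14.8 CPM in both Eed KO organoids, against 0.0752 and 0.0857 CPM in WT organoids, or 370 counts against 2. In crypts it was at 20.2, 25.4 and 12.9 CPM in Eed KO crypts 385_1, 385_2 and 440_1 and at 5.90 to 6.12 CPM in Ezh2 KO crypts, against 20.1, 27.0 and 3.86 CPM in WT crypts 385_1, 385_2 and 440_1. The crypt differences from WT were not called (log2 fold change 0.51 ± 0.34 with adjusted p = 0.328 in Eed KO crypts, and -0.12 ± 0.45 with adjusted p = 0.954 in Ezh2 KO crypts). The WT organoids carry the FVB label and all other libraries a C57BL/6-FVB label, and genotype, strain and sex pattern cannot be told apart in organoids.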
